A study of Mus musculus with 32 samples.

Results

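Huntingtin and 7 other proteins were followed at the RNA level in mouse striatum: Htt, Hap1, Hip1, Hip1r, Zdhhc17, Rasd2, Pacsin1 and Sh3gl3. The others are known to bind huntingtin or to modify it, apart from Hip1r, which is related to Hip1. The members are all probe sets that the platform's annotation assigns to exactly 1 of these symbols. They numbered 23 of 45037 probe sets, for 8 of 18193 genes. Htt had 4 probe sets, Hap1 had 1, Hip1 had 5, Hip1r had 3, Zdhhc17 had 5, Rasd2 had 2, Pacsin1 had 2 and Sh3gl3 had 1. The 32 arrays, all from male mice aged 12 weeks on a mixed CBA and C57Bl/6 background, fell into 4 groups: R6/2 mice given HSP990 (n = 8), R6/2 mice given vehicle (n = 7), wild-type (WT) mice given HSP990 (n = 10) and WT mice given vehicle (n = 7). HSP990 is an inhibitor of the chaperone HSP90. It was given by oral gavage, at 12 mg/kg for 4 h according to the design text of the series, and vehicle mice received the saline-based formulation alone. R6/2 mice carry a transgenic fragment of the human huntingtin gene with an expanded CAG repeat, while both mouse Htt alleles remain. The Htt probe sets were designed on the mouse gene, so they do not report the transgene by design. Probe sequences were not used here, and cross-hybridisation was not tested. The labels name no individual animals. Each array was taken as 1 mouse, and p-values reflect only how far arrays of a group scatter, which may be in part technical.

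Huntingtin is a large scaffold protein that joins vesicles to motor proteins and takes part in endocytosis and transcription. In Huntington's disease an expanded polyglutamine stretch in huntingtin is most harmful to the medium spiny neurons of the striatum. Some of the partners are found throughout the brain, while Rasd2 is enriched in the striatum, which has made it a candidate in studies of why this region is vulnerable. Hap1 couples huntingtin to kinesin and dynactin. Hip1 and Hip1r link clathrin coats to actin, Pacsin1 and Sh3gl3 are membrane-bending proteins of endocytosis, and Zdhhc17 attaches palmitate to huntingtin. Rasd2, also known as Rhes, is a small GTPase that binds mutant huntingtin and promotes its SUMOylation.

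The DNA upstream of 4 of these genes is shown, since Rasd2, Pacsin1 and Sh3gl3 are the members called lower in R6/2 on HSP990 and on vehicle by at least 1 probe set, and Htt is the gene at the centre of the family. Each run is the 250 bases before the transcript start that RefSeq lists on mouse build GRCm38.p6, all on the plus strand, written 5′ to 3′. They lie at chr8:75213694-75213943 for Rasd2, chr17:27684989-27685238 for Pacsin1, chr7:82174546-82174795 for Sh3gl3 and chr5:34761490-34761739 for Htt. The starts used for Pacsin1, Sh3gl3 and Htt lie inside the annotated span of the gene, so these runs may include transcribed bases. Capitals mark the GC box GGGCGG, the cyclic AMP response element TGACGTCA, and pairs of heat shock element units in either arrangement, GAANNTTC or TTCNNGAA, each searched on both strands.
Rasd2: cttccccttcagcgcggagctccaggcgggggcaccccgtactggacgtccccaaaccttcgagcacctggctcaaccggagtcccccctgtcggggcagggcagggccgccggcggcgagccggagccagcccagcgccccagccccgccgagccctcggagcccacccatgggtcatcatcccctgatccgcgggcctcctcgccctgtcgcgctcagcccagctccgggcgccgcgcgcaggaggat
Pacsin1: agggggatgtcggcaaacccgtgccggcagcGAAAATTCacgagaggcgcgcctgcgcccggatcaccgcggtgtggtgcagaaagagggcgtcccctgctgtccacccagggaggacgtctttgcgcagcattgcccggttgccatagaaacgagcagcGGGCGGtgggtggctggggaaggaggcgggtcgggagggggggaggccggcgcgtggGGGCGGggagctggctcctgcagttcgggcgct
Sh3gl3: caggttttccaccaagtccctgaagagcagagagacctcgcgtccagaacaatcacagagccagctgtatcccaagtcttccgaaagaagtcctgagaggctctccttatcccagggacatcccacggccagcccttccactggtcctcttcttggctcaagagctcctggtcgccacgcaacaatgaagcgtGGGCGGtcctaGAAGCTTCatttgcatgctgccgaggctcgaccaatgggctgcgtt
Htt: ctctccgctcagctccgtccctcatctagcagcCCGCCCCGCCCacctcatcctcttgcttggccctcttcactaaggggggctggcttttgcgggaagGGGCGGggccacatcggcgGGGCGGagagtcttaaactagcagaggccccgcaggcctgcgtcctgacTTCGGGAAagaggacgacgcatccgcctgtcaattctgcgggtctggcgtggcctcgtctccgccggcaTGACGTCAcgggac

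None of the motifs was in the Rasd2 window, whose GC content was 75.2% against a median of 52.4% over all 32851 promoters. The Pacsin1 window held 2 GC boxes, and the Sh3gl3 window held 1. The Htt window held 4 GC boxes, of which 2 share a base, and the response element. Among all promoters of the same length, 32.7% held a GC box and 1.55% held the response element. GAANNTTC, present once each upstream of Pacsin1 and Sh3gl3, was in 6.69% of all promoters, and TTCNNGAA, present once upstream of Htt, was in 7.17%. TTCAGCACC, a stretch of the RE1 element, was searched too. It was in none of the 4 windows and in 0.301% of all promoters. These matches describe the letters of the windows and say nothing about binding.

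The values are log2 signals that the authors had normalised between arrays. Of the 23 probe sets, 15 had a mean over all arrays above the median of all probe sets, 5.77, and the brightest probe set of every member was among them. The other 8 are called dim here. A probe set was called when the p of a linear model fitted with limma over all 45037 probe sets, adjusted by Benjamini and Hochberg, was under 0.05. Each array's RNA was checked by the log2 difference between 3′ and 5′ control probe sets for Gapdh and Actb, averaged. It ran from 0.87 to 4.56 in R6/2 HSP990, from 0.78 to 2.11 in R6/2 vehicle, from 0.64 to 1.61 in WT HSP990 and from 0.82 to 2.45 in WT vehicle arrays. The highest of all belonged to R6/2 HSP990 replicate 5. The 8 measured markers of medium spiny neurons, the main cells of the striatum, all had means above the median of all probe sets in every group.

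Between R6/2 and WT mice on HSP990, 7 of the 23 probe sets were called, all lower in R6/2. They were both of Rasd2, 1 of Pacsin1, the one of Sh3gl3, and single probe sets of Hip1, Hip1r and Zdhhc17. Of all probe sets, 27.2% were called in this comparison in either direction, and 11.5% were called lower. The median difference of the 23 was -0.02 on the log2 scale, against 0.01 over all probe sets. At an unadjusted p under 0.05, 8 of the 23 and 36% of all probe sets passed.

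On vehicle, 5 of the 23 probe sets were called between R6/2 and WT mice, again all lower in R6/2: both of Rasd2, both of Pacsin1 and the one of Sh3gl3. The background was smaller here, with 15.1% of all probe sets called in either direction and 7.03% called lower. The median difference of the 23 was -0.13, against -0.01 over all probe sets. At an unadjusted p under 0.05, 9 of the 23 and 27.2% of all probe sets passed. The group means compared on HSP990 and on vehicle share no arrays. The spread of each probe set was fitted over all arrays together, so the tests on HSP990 and on vehicle are not independent.

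**Figure D1:**
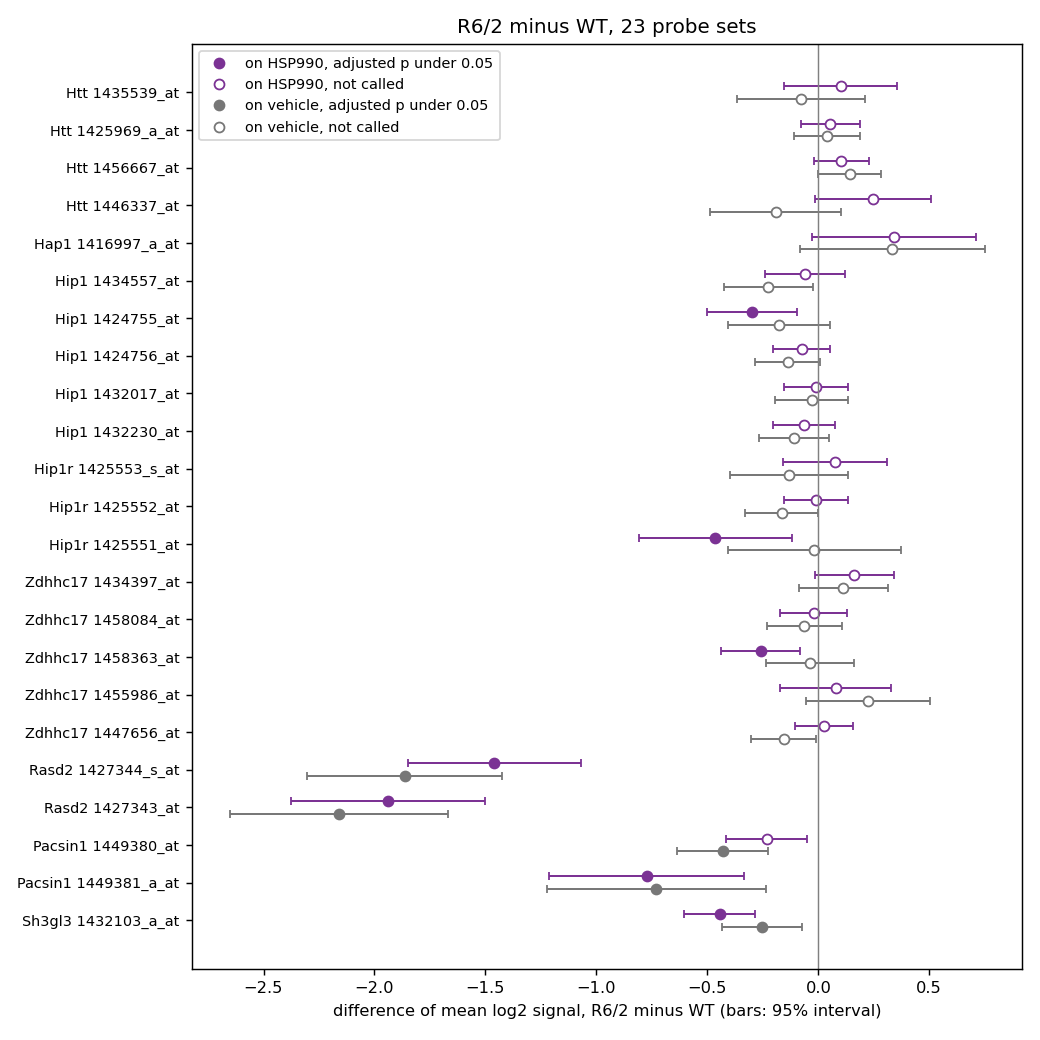
Differences of mean log2 signal, R6/2 minus WT, for the 23 probe sets, with 95% intervals; purple marks mice on HSP990, grey marks mice on vehicle, and filled points are called at an adjusted p under 0.05. The 2 Rasd2 probe sets lie between -2.16 and -1.46, apart from the rest, while the 4 Htt probe sets lie between -0.19 and 0.25.

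Rasd2 had the largest difference of the members. Probe set 1427344_s_at measured 10.10, 11.27 and 11.67 (lowest, median, highest log2 signal) in R6/2 HSP990 arrays, against 11.87, 12.67 and 12.89 in WT HSP990 arrays. On vehicle it measured 9.73, 10.92 and 11.50 in R6/2 arrays, against 12.32, 12.62 and 13.08 in WT arrays. Every R6/2 array was below every WT array, on either treatment. On HSP990 the signal was 2.75-fold lower in R6/2 (log2 change -1.46 ± 0.19 SE, limma adjusted p = 4.95e-07), the 65th lowest change of 18193 genes. On vehicle it was 3.64-fold lower (log2 change -1.86 ± 0.22, limma adjusted p = 2.49e-07), the 19th lowest.

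The second Rasd2 probe set, 1427343_at, gave the same order of genotypes. It measured 6.84, 7.93 and 8.47 in R6/2 HSP990 arrays, against 9.01, 9.83 and 10.03 in WT HSP990 arrays. On vehicle it measured 6.21, 7.57 and 8.07 in R6/2 arrays, against 9.02, 9.47 and 10.30 in WT arrays. The genotypes did not overlap on either treatment. Signal was 3.83-fold lower in R6/2 on HSP990 (limma adjusted p = 2.47e-08) and 4.47-fold lower on vehicle (limma adjusted p = 1.42e-07). R6/2 arrays lay wholly below WT arrays for 3.05% of all probe sets on HSP990 and for 1.78% on vehicle. Across the 32 arrays, with group means taken away, the signals of both Rasd2 probe sets correlated at r = 0.93, as a description.

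**Figure D2:**
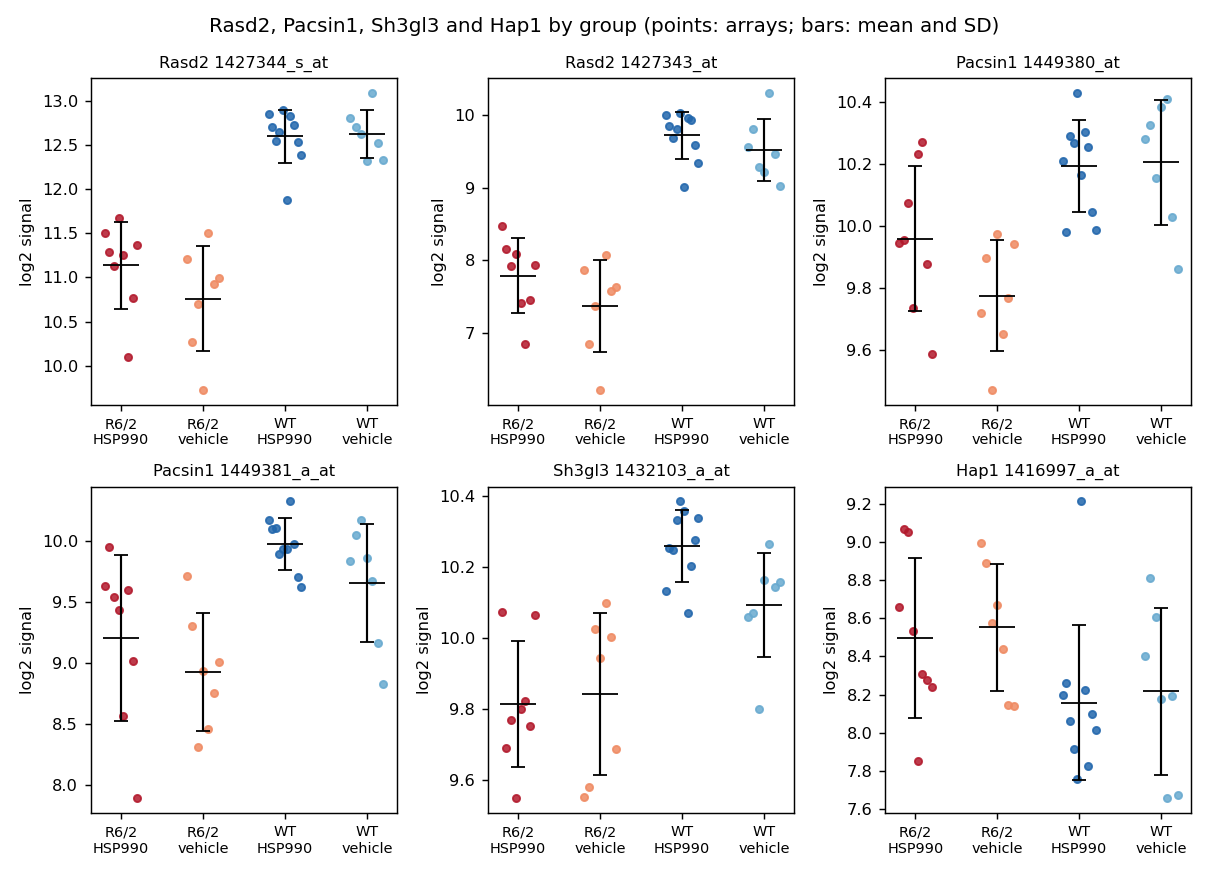
Log2 signal of Rasd2, Pacsin1, Sh3gl3 and Hap1 probe sets in each of the 32 arrays, by group, with the mean and SD as black bars; each panel has its own axis. The R6/2 arrays of both Rasd2 probe sets lie below all WT arrays, while the groups overlap for Pacsin1 and Hap1, and for Sh3gl3 only barely on HSP990.

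Most medium spiny neuron markers were also lower in R6/2. Of the 8 measured, 7 were called lower on HSP990, where 10.5% of all genes were. On vehicle 7 were called lower, where 8.71% of all genes were. The median differences of the 8 were -1.73 on HSP990 and -1.40 on vehicle. The mean log2 signal of the 8 markers ran from 10.03 to 10.95 in R6/2 HSP990, from 9.78 to 11.27 in R6/2 vehicle, from 11.81 to 12.29 in WT HSP990 and from 11.79 to 12.21 in WT vehicle arrays. Drd2, a dopamine receptor gene of the indirect pathway, differed by -1.87 ± 0.24 on HSP990 and by -1.78 ± 0.27 on vehicle. Rgs9, a striatal regulator of G-protein signalling, differed by -2.04 ± 0.17 and -1.88 ± 0.19. Tac1, the substance P precursor, differed least, by -0.33 ± 0.14 on HSP990 and by -0.37 ± 0.15 on vehicle, and was not called in either. The part of these markers in the Rasd2 difference was not tested. In whole tissue, fewer cells of a type and less RNA per cell cannot be told apart.

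**Figure D3:**
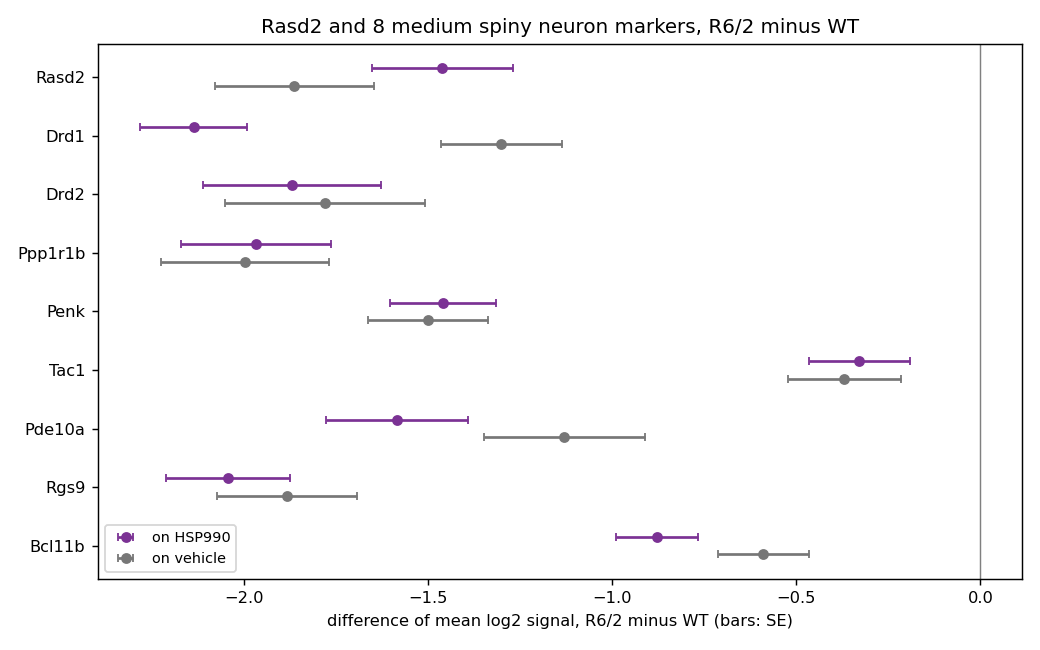
Differences of mean log2 signal, R6/2 minus WT, with SE bars, for the brightest probe set of Rasd2 and of 8 medium spiny neuron markers, on HSP990 (purple) and on vehicle (grey). All points lie below 0, from -2.14 for Drd1 on HSP990 to -0.33 for Tac1 on HSP990.

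The genes most like Rasd2 over the 32 arrays, by Pearson's r after group means were taken away, were Inf2 (r = 0.91), Pde1b (r = 0.90) and Syndig1l (r = 0.89). Their R6/2 minus WT differences were -1.30, -1.38 and -1.97 on HSP990, and -1.60, -1.52 and -2.44 on vehicle, all called. The arrays differed in RNA quality and in marker levels, and all genes of an array share these, so the likeness is only a description.

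Pacsin1 RNA was lower in R6/2, by less than Rasd2. Its brightest probe set, 1449380_at, measured 9.59, 9.95 and 10.27 in R6/2 HSP990 arrays, against 9.98, 10.23 and 10.43 in WT HSP990 arrays, with overlap. That difference of -0.23 ± 0.09 had a limma adjusted p of 0.0501, just outside the threshold, and was called in 10 of 12 alternative settings. On vehicle it measured 9.47, 9.77 and 9.97 in R6/2 arrays, against 9.86, 10.28 and 10.41 in WT arrays. The groups overlapped only through the highest R6/2 arrays and the lowest WT array. The signal was 1.35-fold lower in R6/2 (log2 change -0.43 ± 0.10, limma adjusted p = 0.00285).

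The other Pacsin1 probe set, 1449381_a_at, measured 7.89, 9.49 and 9.96 in R6/2 HSP990 arrays, against 9.63, 9.96 and 10.33 in WT HSP990 arrays. On vehicle it measured 8.32, 8.94 and 9.72 in R6/2 arrays, against 8.83, 9.84 and 10.18 in WT arrays. R6/2 arrays were lower for the most part, with overlap on both treatments. The log2 difference was -0.77 ± 0.22 on HSP990 (limma adjusted p = 0.00644). On vehicle it was -0.73 ± 0.24 (limma adjusted p = 0.0378), and this call was lost without any of 9 single arrays, with an adjusted p of up to 0.1. After group means were taken away, the pair of Pacsin1 probe sets correlated at r = 0.49 over the 32 arrays. The genes most like Pacsin1 were Apba1, Dnm1 and Ypel3 (r between 0.80 and 0.82), none of which was called between the genotypes.

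Sh3gl3, or endophilin A3, binds the proline-rich stretch near the start of huntingtin. On HSP990 its probe set 1432103_a_at measured 9.55, 9.78 and 10.07 in R6/2 arrays, against 10.07, 10.26 and 10.38 in WT arrays, so the groups met only at their edges. The signal was 1.36-fold lower in R6/2 (log2 change -0.44 ± 0.08, limma adjusted p = 4.58e-05). Vehicle arrays measured 9.55, 9.94 and 10.10 in R6/2 mice, against 9.80, 10.14 and 10.26 in WT mice, with clear overlap. The difference of -0.25 ± 0.09 had a limma adjusted p of 0.0495. It was lost in 6 of 12 alternative settings and without any of 23 of the 32 single arrays, with adjusted p between 0.0506 and 0.132. The genotype differences on HSP990 and on vehicle were not shown to differ for Sh3gl3 (interaction -0.19 ± 0.12, limma adjusted p = 0.514).

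Htt itself was not called between the genotypes by any of its 4 probe sets. The brightest, 1435539_at, measured 8.26, 8.66 and 8.94 in R6/2 HSP990 arrays, against 8.25, 8.52 and 8.88 in WT HSP990 arrays. On vehicle it measured 8.07, 8.32 and 9.01 in R6/2 arrays, against 7.84, 8.56 and 8.88 in WT arrays. All 4 groups overlapped widely. The R6/2 to WT ratio was 1.07 on HSP990, with a 95% interval from 0.897 to 1.28. On vehicle it was 0.947, with an interval from 0.775 to 1.16.

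The other 3 Htt probe sets also differed little. On HSP990 their log2 differences were 0.05 for 1425969_a_at, 0.10 for 1456667_at and 0.25 for the dim 1446337_at, and on vehicle they were 0.04, 0.14 and -0.19. Probe set 1456667_at was called on vehicle only when the 3′ difference of each array was a covariate (limma adjusted p = 0.0434). The 4 probe sets did not follow each other closely over the 32 arrays after group means were taken away, with r between -0.18 and 0.56.

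**Figure D4:**
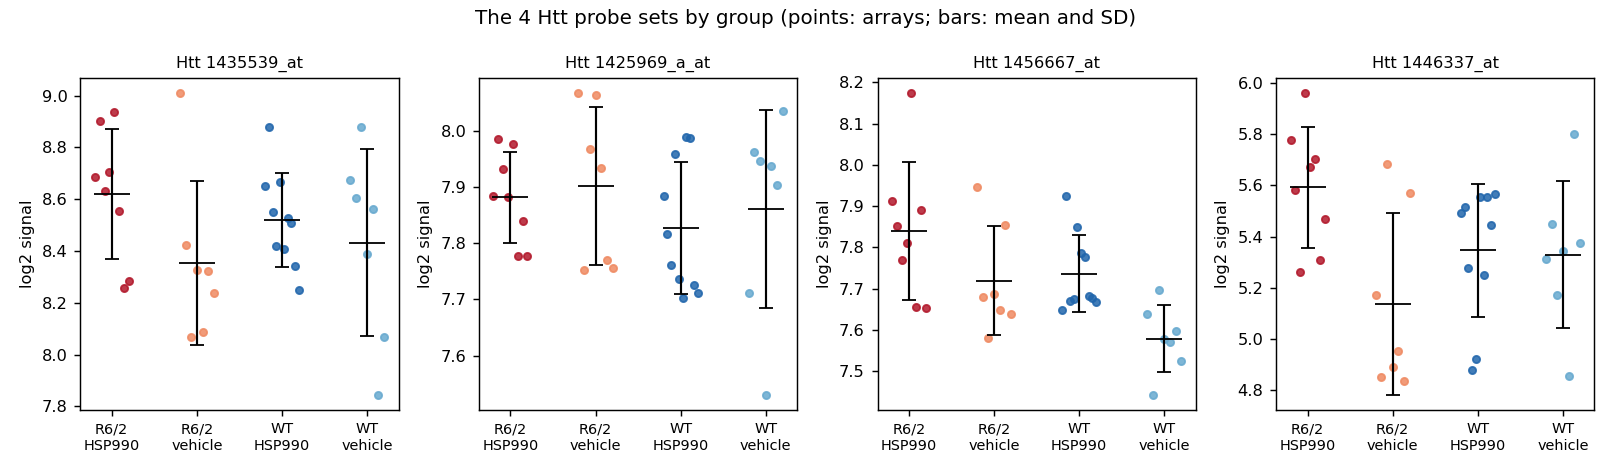
Log2 signal of the 4 Htt probe sets in each of the 32 arrays, by group, with the mean and SD as black bars; each panel has its own axis. The groups overlap in every panel, and 1 R6/2 vehicle array stands above its group for 1435539_at at 9.01.

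Part of the spread of Htt signal followed RNA quality. With group means taken away, the signal of the brightest Htt probe set was higher on arrays with a larger mean 3′ to 5′ difference (r = 0.60, Spearman coefficient = 0.69, n = 32, permutation test, adjusted p = 0.0002 for each over 8 relations). Without the 2 arrays farthest from the median of that difference, R6/2 HSP990 replicate 5 and WT vehicle replicate 5, r was 0.69. Hip1 showed the same relation (r = 0.75, Spearman coefficient = 0.80, permutation adjusted p = 8e-05, the smallest that this number of permutations can give), with r = 0.69 without those arrays. For Rasd2, r was 0.42 (permutation adjusted p = 0.12) and the Spearman coefficient was 0.59 (adjusted p = 0.00096), with r = 0.53 without those arrays. For Hip1r, r was 0.23 (permutation adjusted p = 0.37) and the Spearman coefficient was 0.46 (adjusted p = 0.018). Without those arrays r for Hip1r was 0.66, so its value rests on them. The other 4 members gave adjusted p of at least 0.0971 with all arrays. Leaving the same arrays out moved r to -0.49 for Zdhhc17 (-0.21 with all arrays), to -0.29 for Sh3gl3 (-0.13), to 0.12 for Hap1 (-0.24) and to -0.08 for Pacsin1 (0.22). Rasd2 stayed called on both treatments with the 3′ difference as a covariate. The genes most like Htt were Arrb2, Exoc6b and Man1b1, each with r of 0.90 over the 32 arrays.

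Hap1 was the member with the largest difference above 0, and it was not called. Its probe set 1416997_a_at measured 7.85, 8.42 and 9.07 in R6/2 HSP990 arrays, against 7.76, 8.08 and 9.21 in WT HSP990 arrays. Vehicle arrays measured 8.14, 8.58 and 8.99 in R6/2 mice, against 7.66, 8.19 and 8.81 in WT mice. The groups overlapped on both treatments. The log2 difference was 0.34 ± 0.18 on HSP990 (limma adjusted p = 0.178) and 0.33 ± 0.20 on vehicle (adjusted p = 0.307). One array bears on the first of these, WT HSP990 replicate 6, which had the highest Hap1 signal of all arrays. Without it the limma adjusted p on HSP990 was 0.034. Galnt16, Nnat and Blcap were the genes most like Hap1, with r of 0.82, 0.77 and 0.77.

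On HSP990 all 5 Hip1 probe sets differed by less than 0, from -0.30 to -0.01, and 1 of them was called. Probe set 1424755_at measured 7.01, 7.48 and 7.76 in R6/2 arrays, against 7.60, 7.73 and 7.91 in WT arrays, and was called lower in R6/2 (log2 change -0.30 ± 0.10, limma adjusted p = 0.0235). The brightest, 1434557_at, differed by -0.06 ± 0.09 and was not called. With the 3′ difference as a covariate the calls changed places: 1424755_at had an adjusted p of 0.0964 and 1434557_at one of 0.0219. The first was also lost without R6/2 HSP990 replicate 5 (limma adjusted p = 0.0691) or replicate 8 (0.0735). On vehicle no Hip1 probe set was called, and all 5 differences were below 0, from -0.23 to -0.03. With its probe sets averaged, Hip1 was called lower in R6/2 on vehicle (limma adjusted p = 0.0196) and on HSP990 (0.0365). On vehicle 1434557_at was also called with the leading component of the scatter within groups as a covariate (limma adjusted p = 0.0393). The genes most like Hip1 were Capn15, Apbb3 and Stx5a, with r between 0.82 and 0.83.

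Hip1r had a pair of bright probe sets, 1425553_s_at and 1425552_at, that followed each other over the 32 arrays (r = 0.79). Neither was called, with differences of 0.07 and -0.01 on HSP990 and of -0.13 and -0.17 on vehicle. Without R6/2 vehicle replicate 1, 1425552_at was called lower on vehicle (limma adjusted p = 0.0306). It was also called there with arrays weighted (0.0349) or with the leading component of the scatter within groups as a covariate (0.0357). The dim 1425551_at was called lower in R6/2 on HSP990 (log2 change -0.46 ± 0.17, limma adjusted p = 0.0395), but did not follow the others (r = -0.09 and -0.25). It measured 4.41, 5.33 and 5.75 in R6/2 arrays, against 5.18, 5.63 and 6.19 in WT arrays, with wide overlap. Its limma adjusted p was 0.449 with the 3′ difference as a covariate, and 0.122 without R6/2 HSP990 replicate 5. Edc4, Snx17 and Trim8 were most like Hip1r, with r between 0.87 and 0.90.

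For Zdhhc17 the brightest probe set, 1434397_at, measured 10.06, 10.55 and 10.62 in R6/2 HSP990 arrays, against 10.07, 10.28 and 10.45 in WT HSP990 arrays. Most R6/2 arrays were higher, but the difference of 0.16 ± 0.09 was not called (limma adjusted p = 0.185), nor was that of 0.11 ± 0.10 on vehicle. The dim 1458363_at was called in the other direction on HSP990 (log2 change -0.26 ± 0.09, limma adjusted p = 0.0241), and its adjusted p was 0.114 with the 3′ difference as a covariate. The remaining 3 probe sets were not called on either treatment. Atp5c1, Cog6 and Arid1a were most like Zdhhc17 over the arrays, with r of 0.90, 0.89 and 0.89.

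HSP990 left the members without a call. In R6/2 mice 0 of the 23 probe sets were called by limma between HSP990 and vehicle, with 2.81% of all probe sets called. An unadjusted p under 0.05 was found for 3 of the 23 and for 15.1% of all probe sets. In WT mice 0 of the 23 were called, with 4.63% of all probe sets called. Here 2 of the 23, and 17.2% of all, had an unadjusted p under 0.05. The difference of these responses, R6/2 minus WT, is called the interaction here. It was called by limma for 0 of the 23 and for 0.271% of all probe sets, and 1 of the 23 had an unadjusted p under 0.05, as did 12.7% of all.

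The responses of single members were small or poorly resolved. The brightest Rasd2 probe set differed by 0.37 ± 0.21 in R6/2 (95% interval -0.05 to 0.80, limma adjusted p = 0.414), and by -0.03 ± 0.20 in WT (interval -0.43 to 0.38). The interaction was 0.40 ± 0.29 (interval -0.19 to 0.99, limma adjusted p = 0.588), so the genotype difference of Rasd2 was not shown to differ between treatments. Of the 8 spiny neuron markers, only the dopamine receptor gene Drd1 was called with HSP990 in R6/2, lower (log2 change -0.80 ± 0.16, limma adjusted p = 0.00291). The other markers differed in both directions, from -0.27 for Pde10a to 0.28 for Ppp1r1b. The interaction of Drd1 was not called (-0.84 ± 0.22, limma adjusted p = 0.0847).

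The brightest Htt probe set differed between HSP990 and vehicle by 0.27 ± 0.14 in R6/2 (interval -0.01 to 0.55) and by 0.09 ± 0.13 in WT (interval -0.18 to 0.35). The dim 1446337_at came nearest to a call in R6/2. It measured 5.26, 5.63 and 5.96 in R6/2 HSP990 arrays, against 4.84, 4.95 and 5.68 in R6/2 vehicle arrays, with overlap. Its difference of 0.45 ± 0.14 had a limma adjusted p of 0.0771, which fell under the threshold without R6/2 vehicle replicate 3 (0.027) or replicate 7 (0.048). In WT the same probe set differed by 0.02 ± 0.13. Hap1 differed by -0.05 ± 0.20 in R6/2 and by -0.06 ± 0.19 in WT, and Sh3gl3 by -0.03 ± 0.09 and 0.17 ± 0.08.

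**Figure D5:**
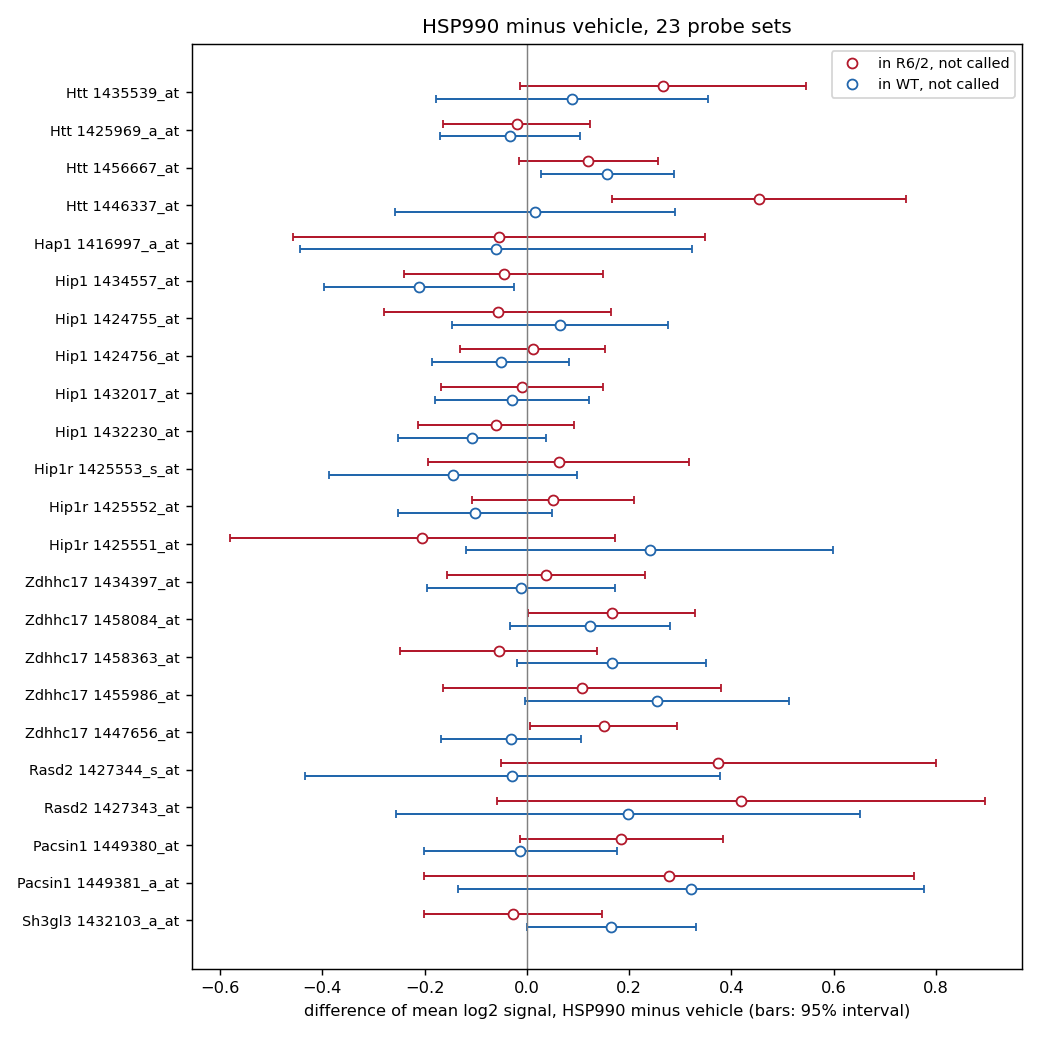
Differences of mean log2 signal, HSP990 minus vehicle, for the 23 probe sets, with 95% intervals; red marks R6/2 mice, blue marks WT mice, and open points are not called. All points lie between -0.21 and 0.45, and none is filled.

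Other genes of these pathways were counted in 5 lists, with 65 of 74 genes measured. Between R6/2 and WT mice on HSP990, 14 were higher and 10 were lower, where 32.3% of all genes were called. On vehicle 11 were higher and 5 were lower, where 19.4% of all genes were called. Without the 2 arrays of largest Gapdh 3′ difference, the counts were 14 higher and 10 lower on HSP990, with 21 of the genes called before, and 10 higher and 5 lower on vehicle, with 15 of the genes called before. With single arrays left out in turn, a check chosen after seeing the data, 6 of the 24 calls on HSP990 were lost without at least 1 array: Synj1, Bin1, Zdhhc5, Rest, Fkbp15 and Furin. On vehicle 5 of 16 were lost in the same way: Kif5c, Clta, Eps15, Ppt1 and Crebbp. HSP990 against vehicle gave 0 calls by limma in R6/2, where 2.93% of all genes were called. In R6/2, 11 of the 65 genes and 15.7% of all had an unadjusted p under 0.05. In WT it gave 2, where 5.38% of all genes were called: Ntrk2 was higher (0.39 ± 0.10), and Tgm2, a transglutaminase that cross-links huntingtin, was lower (-0.75 ± 0.15). For the interaction limma called 0 of the 65 and 0.253% of all genes, with an unadjusted p under 0.05 for 6 of the 65 and for 12.8% of all.

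Among 14 genes of Hap1 and axonal transport, 6 were higher and 3 lower in R6/2 on HSP990, and 3 were higher and 2 lower on vehicle. The median difference was 0.17 on HSP990 and 0.10 on vehicle, against 0.04 and -0.01 over all genes. F8a, a huntingtin-associated protein, was higher by 0.65 ± 0.08 on HSP990 and by 0.46 ± 0.09 on vehicle. Ahi1, a partner of Hap1, was higher by 0.60 ± 0.10 and 0.55 ± 0.12, and Dync1i1, a dynein intermediate chain, by 0.60 ± 0.11 and 0.51 ± 0.12. Kalrn, a guanine nucleotide exchange factor that binds Hap1, was lower by -1.18 ± 0.17 on HSP990 and by -0.82 ± 0.19 on vehicle. The kinesin heavy chain gene Kif5c was lower by -0.26 ± 0.06 and -0.20 ± 0.06. Dync1h1, Dctn1 and Klc1, higher by 0.36, 0.32 and 0.25, and Trak1, lower by -0.35, were called on HSP990 but not on vehicle. Their vehicle differences were 0.13, -0.05, 0.18 and -0.23, in that order. The interaction was not called for any of them, so the genotype differences were not shown to differ between treatments.

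Among 18 genes of the clathrin coat and endocytosis, 2 were higher and 1 lower in R6/2 on HSP990, and 3 were higher on vehicle. The median difference was 0.10 on HSP990 and 0.05 on vehicle. Clta, a clathrin light chain, was higher by 0.32 ± 0.05 and 0.16 ± 0.06, and Synj1, a phosphatase that helps to remove clathrin coats, by 0.26 ± 0.09 and 0.36 ± 0.10. Bin1, a membrane-bending protein, was lower by -0.59 ± 0.21 on HSP990. Its R6/2 HSP990 arrays spread from 6.69 to 9.39, against 8.94 to 9.77 in WT HSP990 arrays, and without R6/2 HSP990 replicate 5 the difference was -0.30 ± 0.12 and was not called (limma adjusted p = 0.0627). On vehicle Bin1 differed by 0.13 ± 0.24. Eps15, an endocytic adaptor, was higher by 0.33 ± 0.11 on vehicle. The Synj1 call on HSP990 was lost without the 2 arrays of largest Gapdh 3′ difference (limma adjusted p = 0.0816).

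Among 12 palmitoylation genes, 3 were higher and 1 lower on HSP990, and 4 were higher on vehicle. The median difference was 0.08 on HSP990 and 0.03 on vehicle. Lypla1, a thioesterase that removes palmitate, was higher by 0.81 ± 0.12 on HSP990 and by 0.73 ± 0.14 on vehicle. The palmitoyltransferase genes Zdhhc3 and Zdhhc5 were higher by 0.37 ± 0.07 and 0.25 ± 0.09 on HSP990, and by 0.36 ± 0.08 and 0.39 ± 0.11 on vehicle. Ppt1, a lysosomal thioesterase, was higher by 0.38 ± 0.12 on vehicle. Dlg4, which encodes the palmitoylated scaffold PSD-95, was lower by -1.50 ± 0.37 on HSP990, and its R6/2 HSP990 arrays spread from 5.86 to 10.13, against 8.91 to 10.83 in WT HSP990 arrays. Without R6/2 HSP990 replicate 5 the Dlg4 difference was -1.06 ± 0.26 and stayed called (limma adjusted p = 0.00262).

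Among 14 other huntingtin partners, 2 were higher and 2 lower on HSP990, and 1 was higher and 1 lower on vehicle. The median difference was 0.07 on HSP990 and 0.05 on vehicle. Git1, a scaffold protein that binds huntingtin, was lower by -0.69 ± 0.17 and -0.93 ± 0.19. On HSP990 the repressor gene Rest was higher by 0.30 ± 0.10, Fkbp15 was higher by 0.16 ± 0.06 and Prpf40b was lower by -0.23 ± 0.07. The acetyltransferase gene Crebbp was higher by 0.34 ± 0.11 on vehicle. Fkbp15 on HSP990 (limma adjusted p = 0.0852) and Crebbp on vehicle (0.0702) were lost without the 2 arrays of largest Gapdh 3′ difference.

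Of 7 genes of the BDNF axis, a growth factor supply that huntingtin helps to carry, 1 was higher and 3 lower on HSP990, and 2 were lower on vehicle. The median difference was -0.12 on HSP990 and -0.08 on vehicle. Sorcs2 and Sort1, sorting receptors for the BDNF precursor, were lower by -1.24 ± 0.13 and -0.41 ± 0.08 on HSP990, and by -1.02 ± 0.15 and -0.42 ± 0.09 on vehicle. Ntrk2, the BDNF receptor gene, was lower by -0.57 ± 0.09 on HSP990, and Furin, a protease for the precursor, was higher by 0.28 ± 0.10. Bdnf itself differed by -0.12 ± 0.29 on HSP990 and by 0.19 ± 0.33 on vehicle, and was not called. The Furin call was lost without the 2 arrays of largest Gapdh 3′ difference (limma adjusted p = 0.0613).

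Markers of other cells and regions were counted beside these, where 10.5% of all genes were called lower in R6/2 on HSP990 and 8.71% on vehicle. Of 6 interneuron markers, 5 were lower on HSP990 and 3 on vehicle. The counts lower in R6/2 on HSP990 were 4 of 6 for astrocytes, 3 of 5 for oligodendrocytes, 3 of 6 for microglia and 1 of 4 for endothelium, and on vehicle they were 1, 1, 1 and 0. Without the 2 arrays of largest Gapdh 3′ difference, Sst, Aldh1l1, Mbp, Mog, P2ry12 and Pecam1 lost their calls on HSP990, and Mobp lost its call on vehicle. The counts on HSP990 were then 4 for interneurons, 3 for astrocytes, 1 for oligodendrocytes, 2 for microglia and 0 for endothelium, and on vehicle 3, 1, 0, 1 and 0. Markers of neighbouring subcortical regions gave 1 higher and 1 lower of 6 on each treatment, and no cortex or choroid plexus marker was called by limma. At an unadjusted p under 0.05, which 40.9% of all genes passed on HSP990 and 32.6% on vehicle, 1 of 5 choroid plexus markers passed on vehicle and none on HSP990, and none of 4 cortex markers passed on either. The mean of the cortex list still spread widely between arrays, from 4.39 to 7.92 in R6/2 HSP990, from 4.60 to 8.71 in R6/2 vehicle, from 4.47 to 7.47 in WT HSP990 and from 4.77 to 7.92 in WT vehicle. The part of these markers in the members' values was not tested.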

How the data were processed

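Biotin-labelled RNA from striatum was hybridised to Affymetrix arrays with a kit that transcribes from the 3′ end, per the labels' protocols. The deposited log2 values run from 2.15 to 14.7. The authors had normalized them between arrays (medians from 5.73 to 5.78), by a method not given in the sources used here. Precision is limited by the number of arrays.

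Of 45101 probe sets, 64 controls served for quality only. Groups followed the labels. The means of the 4 groups were fitted for 45037 probe sets with limma 3.58.1 (R 4.3.3), with moderated two-sided tests and Benjamini-Hochberg adjustment over all probe sets. Errors are standard errors of the fit, which shares 1 spread over the groups, and fold changes are antilogs. Lists and likeness used the brightest probe set of each of 18193 genes. On simulated data, 14%, 66%, 92% and 100% of 50 probe sets changed by 0.25, 0.5, 1 and 2 log2 units were called between R6/2 and WT on vehicle. For HSP990 against vehicle in R6/2 the shares were 4%, 56%, 98% and 100%, and for the interaction 6%, 36%, 90% and 98%. Far fewer probe sets were changed there than the 15.1% called between R6/2 and WT on vehicle in the real data. The adjusted p depends on that share, so these recovery rates may differ from those in the data.

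The rule named all member probe sets, the 3 genes most like each member, the list genes of smallest p and any called, and the markers. The members and lists were chosen with earlier results of these data known. Alternatives were other normalizations, probe set choices, filters, variance models, covariates, a replicate block and each array left out.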

Additional observations from a re-analysis of the deposited data

Results flagged for a closer look

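Of 92 groups of arrays tested, 6 held 1 array that stood apart from the rest of its group by Dixon's criterion. Chance alone flags about 1 in 20 groups. Explanations were not tested.

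WT HSP990 replicate 6 stood apart in 2 genes. Its Hap1 signal was 9.21, where the other arrays of the group ran from 7.76 to 8.26, and its Rasd2 signal (1427344_s_at) was 11.87, where the others ran from 12.39 to 12.89. The same array had the lowest mean of the spiny neuron markers in its group, 11.81, and the highest mean of the markers of neighbouring subcortical regions, 6.85.

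R6/2 vehicle replicate 1 was high in 2 genes. Its Htt signal (1435539_at) was 9.01, where the others ran from 8.07 to 8.42, and its Hip1r signal (1425552_at) was 8.55, where the others ran from 7.95 to 8.20. It also had the largest mean 3′ to 5′ difference of its group, 2.11.

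Dim probe sets gave the other 2. R6/2 HSP990 replicate 5 was high for Zdhhc17 (1447656_at) at 3.63, where the others ran from 3.01 to 3.24, and it had the largest mean 3′ to 5′ difference of all arrays, 4.56. R6/2 HSP990 replicate 6 was low for Hip1 (1432017_at) at 4.60, where the others ran from 4.76 to 4.87.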

How the results depend on the processing

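Both Rasd2 probe sets stayed called lower in R6/2 on HSP990 and on vehicle in every alternative that tested them, with log2 changes of the brighter from -1.70 to -1.31 and from -2.01 to -1.69. Sh3gl3 on HSP990 also stayed called (-0.48 to -0.41), as did Pacsin1 1449380_at on vehicle (-0.58 to -0.38). No called value changed sign. The count of members called between R6/2 and WT on HSP990 was 7, where 27.2% of all probe sets were called. It became 3 of 8 with 1 probe set per gene, where 33.6% of all genes were called. With each gene's probe sets averaged it was 4 of 8, against 31.9% of all genes. With single arrays left out it was 5 to 8, against 24.9% to 28.3% of all probe sets. On vehicle the count was 5, where 15.1% of all probe sets were called. It became 3 of 8 with 1 probe set per gene, against 21.5% of all genes. With only the groups compared it was 3, against 10.3% of all probe sets. With single arrays left out it was 3 to 5, against 12.4% to 17.3%. For HSP990 against vehicle the count of 0 in WT became 1 with the 3′ difference as a covariate (Htt 1456667_at, limma adjusted p = 0.0306). There 4.61% of all probe sets were called. In R6/2 the count ranged from 0 to 1 with single arrays left out, against 1.76% to 4.89% of all probe sets. In the main fit, 2 of the 8 brightest probe sets of the members were called on HSP990, against 32.3% over the brightest probe sets of all genes. On vehicle 3 of 8 were called, against 19.4%. The causes of these changes in count were not tested. The call lost most often was that of Sh3gl3 on vehicle, in 6 of 12 other settings and without any of 23 single arrays. A call was gained most often by Pacsin1 1449380_at on HSP990, in 10 of 12 other settings and without any of 12 single arrays. The replicate numbers were not shown to pair the arrays. Over 43 pairs of the same number the median correlation of residuals was 0.02, and 16 were over 0.1. Over 338 pairs of different number the median was -0.03, and 100 were over 0.1. With the replicate block the count of members called between the genotypes was 8 on HSP990, against 24.6% of all probe sets. On vehicle it was 4, against 14.6%. The count was 0 for HSP990 in R6/2 (2.81% of all probe sets), in WT (3.25%) and for the interaction (0.158%). The count over all probe sets called for HSP990 in R6/2 was 1267, and 463 with only the groups compared. Dim probe sets are limited by signal near background, and changes of 0.25 log2 units were mostly missed in the simulation.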
